A study of Homo sapiens with 2 samples.

Results

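The genes described here were MYC and 47 genes of ribosome production in the nucleolus, 48 of the 54261 genes in the count table. They were chosen by name, as genes of rRNA transcription, snoRNPs, rRNA processing and ribosomal subunit assembly, with earlier results of these data known. All 48 names were found in the table. The genes were arranged in 6 role groups, which hold 7, 4, 4, 14, 11 and 8 genes in the order in which they are described.

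The cells were RKO, a line derived from a human colon carcinoma, and received either a negative control siRNA (si-NC) or an siRNA that targets the splicing factor SRSF2 (si-SRSF2). RNA was collected 2 days after transfection. Stranded poly(A) RNA-seq gave 1 library per group, and the depth was 19931360 counts for si-NC against 14512802 for si-SRSF2. Replicates were thus lacking, so differences between the libraries could not be checked against replicate spread and no test was run. The comparison asked how the mRNA of ribosome production differed between cells with and without the knockdown.

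Ribosome production begins in the nucleolus, where RNA polymerase I transcribes a long rRNA precursor. Small nucleolar RNPs (snoRNPs) guide its chemical modification, the small subunit processome cuts and folds it, and separate sets of assembly factors then build the small and the large ribosomal subunit. MYC, a transcription factor, is known to drive many genes of this pathway, which is often highly active in colorectal cancer cells.

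Levels are given as CPM, counts scaled to a common effective library size. The log2 ratio is that of si-SRSF2 to si-NC after 0.5 CPM was added to each level, so that values below 0 are lower in si-SRSF2. Each ratio has a 95% Clopper-Pearson interval, which covers counting error only. A count of 0 allows a level of up to 0.151 CPM in si-NC or 0.207 CPM in si-SRSF2, which 3 counts correspond to. Genes that averaged 1 CPM or more over both libraries were kept, which were 12620 of all genes and 46 of the 48.

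SRSF2 was examined first as the targeted gene. It had 1964 counts (98.5 CPM) in si-NC and 713 counts (49.1 CPM) in si-SRSF2, a log2 ratio of -0.997 (interval -1.13 to -0.88). The library labelled si-SRSF2 therefore held the lower level, although 30.1% of the exon bases of the SRSF2 transcript overlap another annotated gene and the strand setting of the counting is not given in the sources used here. Among 11 markers of colon epithelium, the summed count was 1582 for si-NC against 1408 for si-SRSF2, a log2 ratio of 0.29 (0.18 to 0.39). KRT8 and KRT18 were the most abundant of them, with KRT8 at 27.4 and 42.6 CPM and KRT18 at 31.7 and 32.9 CPM. EPCAM and CDX2 were detected in both libraries, CDH1, KRT19 and VIL1 had at most 10 counts, and KRT20, CDX1, MUC2 and LGALS4 were at 0 in both. The part of KRT8 and of the other markers in the results below was not tested. Markers of fibroblasts, leukocytes and endothelium summed to 24, 3 and 4 counts in si-NC and to 18, 1 and 2 counts in si-SRSF2.

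Across the ribosome production genes the ratios were small and went both ways. Of the 46 kept, 20 (43.5%) were lower and 26 higher in si-SRSF2, whereas 53.8% of all genes kept were lower. The interval lay wholly below 0 for 8 of the 46, beside 26.7% of all genes, and wholly above 0 for 16, beside 21.0% of all genes. Only FBL was at least 1.5-fold lower, a size that 3.52% of all genes reached, but its low count is uncertain and a pseudocount of 2 CPM ended this call. Only NOLC1 was at least 1.5-fold higher, a size that 4.18% of all genes reached. The median ratio was 0.03, with quartiles of -0.08 and 0.18, and that of all 12620 genes was -0.02, with quartiles of -0.19 and 0.15. In 33 of the 46 genes (71.7%) the ratio lay within 0.2 of 0, beside 55.4% of all genes. In bulk libraries such as these, fewer cells with an mRNA and less of it per cell cannot be told apart. Most of the 48 were well covered, since 44 averaged 5 CPM or more. In those 44 the interval lay below 0 for 7 and above 0 for 16, and in the 10492 genes of all that reach this level for 29.9% and 21.9%. Across the 46 genes, Spearman's rho of the ratio was 0.09 with mean CPM, -0.01 with transcript length and 0.01 with GC content, which describes genes of the same 2 libraries that are not independent replicates. In 7 of the 48 genes at least 20% of the exon bases overlap a gene on the opposite strand, and their counts are uncertain because the strand setting is unknown: NHP2, HEATR1, TBL3, IMP3, NOP14, NOB1 and NOP16.

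**Figure D1:**
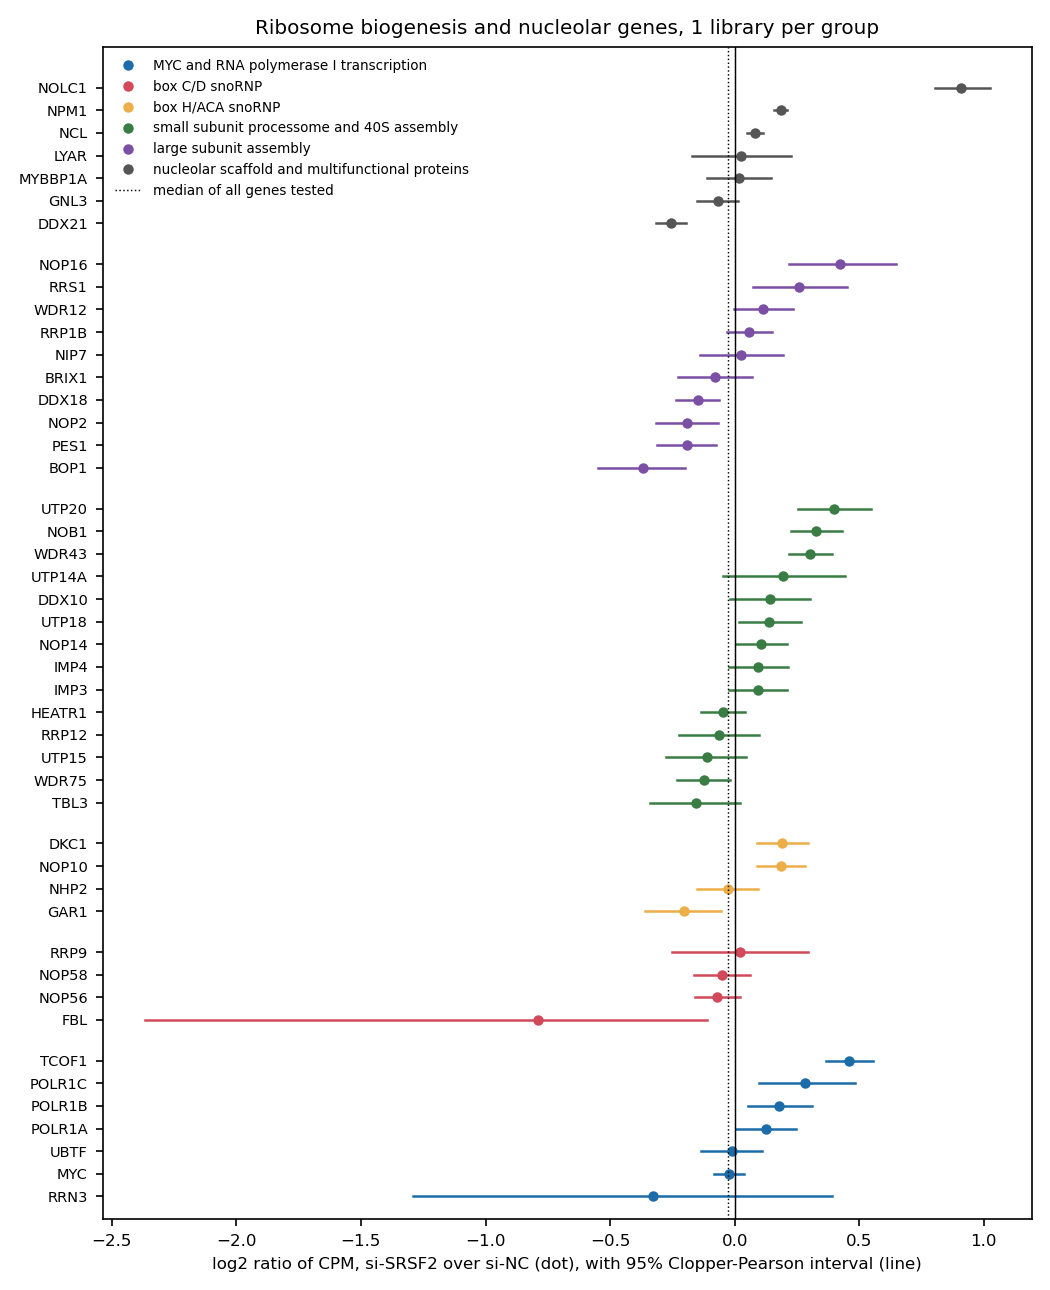
Log2 ratio of CPM in si-SRSF2 over si-NC (x axis) for the 46 genes kept, 1 row per gene, coloured by role group. Dots are ratios and lines 95% Clopper-Pearson intervals, the solid line marks 0 and the dotted line the median of all genes kept, -0.02. NOLC1 stands at 0.91 and FBL, the widest interval, at -0.79.

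**Figure D2:**
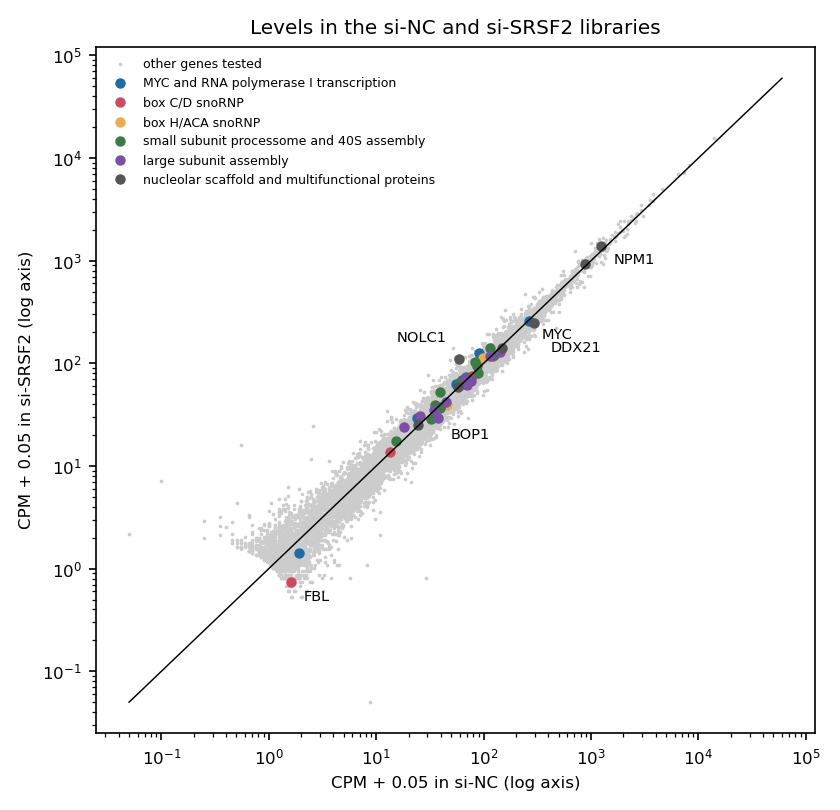
CPM in si-NC (x axis) against CPM in si-SRSF2 (y axis), both on log axes with 0.05 CPM added for drawing, for the 12620 genes kept (grey) with the 46 ribosome production genes coloured by role group. The solid line marks equal levels, and NOLC1 lies above it with 58.9 and 111 CPM.

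**Figure D3:**
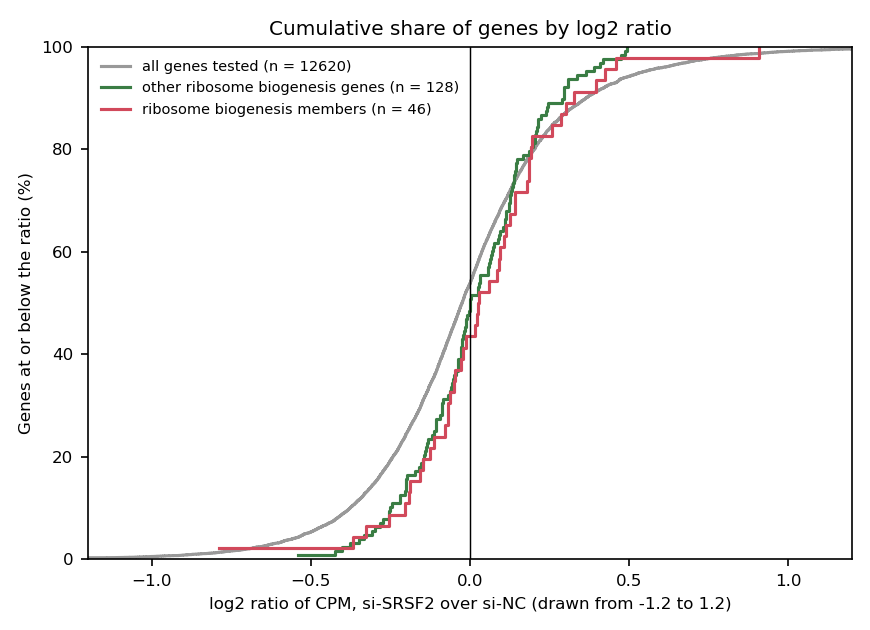
Cumulative share of genes (y axis, in percent) at or below a given log2 ratio of si-SRSF2 over si-NC (x axis, drawn from -1.2 to 1.2). Lines are the 46 ribosome production genes (red), 128 other ribosome biogenesis genes (green) and all 12620 genes kept (grey), with medians of 0.03, 0.00 and -0.02.

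Levels of different genes were compared per length, as CPM per kb of the canonical transcript. On this scale NPM1, a histone chaperone of the nucleolus, had the highest level of the 48 in both libraries, with 933 in si-NC and 1060.5 CPM per kb in si-SRSF2. NCL (nucleolin) came next with 226 and 239 CPM per kb, and NOP10 after it with 196 and 224 CPM per kb. The lowest levels per length were those of FBL, RRN3, PPAN and SURF6, all at or below 1.38 CPM per kb in either library, whereas every other gene of the 48 had at least 4.25 CPM per kb in both.

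**Figure D4:**
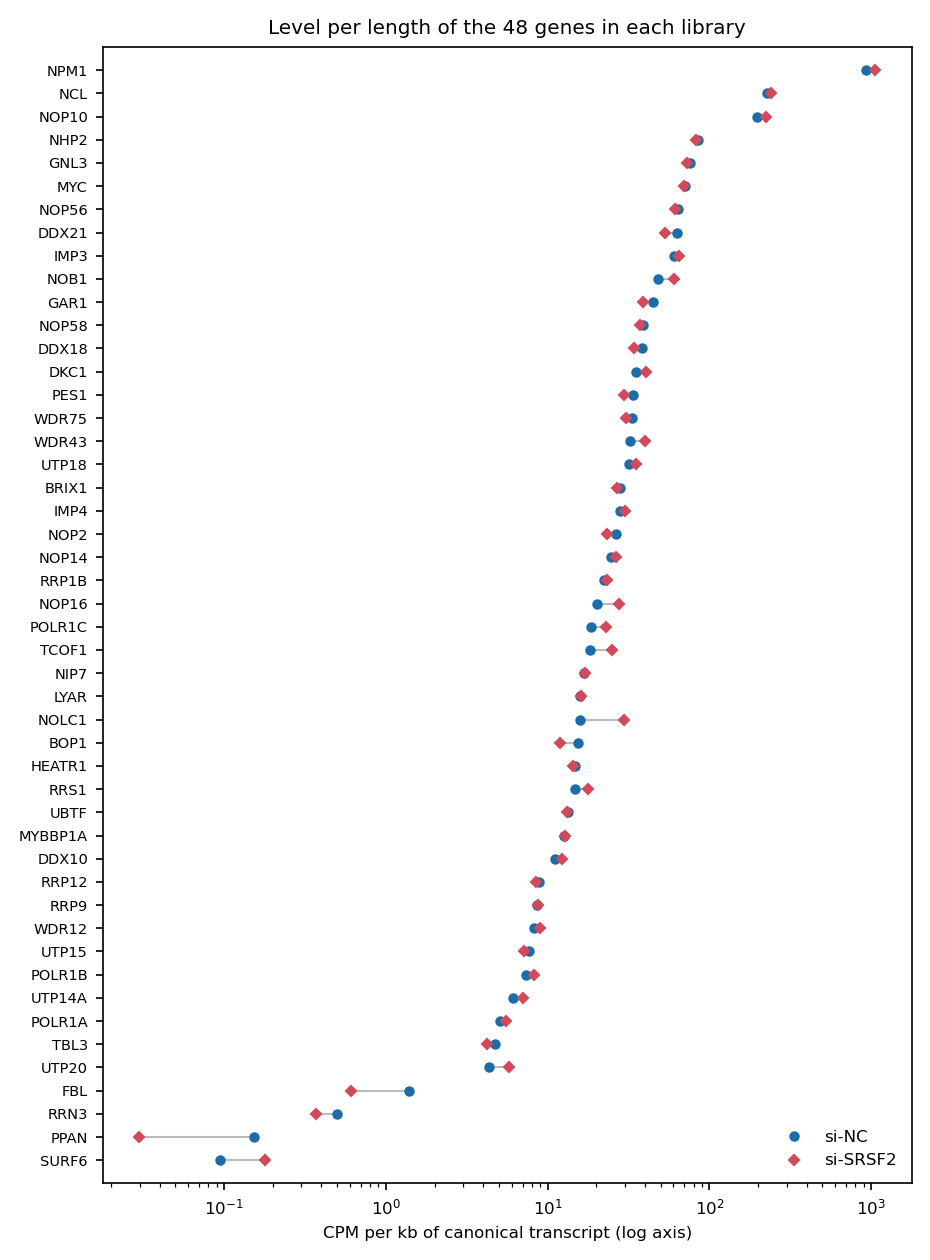
CPM per kb of canonical transcript (x axis, log scale) of each of the 48 genes in si-NC (circles) and si-SRSF2 (diamonds), ordered by the si-NC level. Most pairs of symbols nearly coincide, NOLC1 is wide apart with 15.8 and 29.8 CPM per kb, and FBL, RRN3, PPAN and SURF6 lie at the lower end.

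The first role group joins MYC with RNA polymerase I transcription. MYC had 5281 counts (265 CPM) in si-NC and 3787 counts (261 CPM) in si-SRSF2. The levels differed by less than counting error, with a log2 ratio of -0.02 (-0.08 to 0.04), and the sign turned to 0.00 (0.0022) with upper-quartile factors. TCOF1 (treacle), a nucleolar protein that takes part in rDNA transcription, had 1821 counts (91.4 CPM) in si-NC and 1826 counts (126 CPM) in si-SRSF2. Its ratio of 0.46 (0.37 to 0.56) was the second highest of the genes averaging 5 CPM or more. The RNA polymerase I subunits POLR1A, POLR1B and POLR1C were also higher in si-SRSF2, with ratios of 0.12, 0.18 and 0.28 and intervals wholly above 0. Other RNA polymerase I genes, given further below, had ratios on both sides of 0. POLR1A and POLR1B form the catalytic core of the enzyme, while POLR1C is shared with RNA polymerase III. UBTF, which binds the rDNA promoter, had 64.1 CPM in si-NC against 63.5 CPM in si-SRSF2, and its interval spanned 0. RRN3, which carries the polymerase to the promoter, had only 37 and 20 counts, and its interval ran from -1.29 to 0.39. All of the RRN3 31-mers also occur on an alternate scaffold of GRCh38, so its level is uncertain. In this group of 7 genes, 4 intervals lay above 0 and none (0) below, beside 21.0% and 26.7% of all genes, and the median ratio was 0.12.

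The box C/D snoRNPs place methyl groups on rRNA. FBL (fibrillarin) is their methyltransferase, and NOP56 and NOP58 form its scaffold. NOP56 was the most counted of the 4 genes, with 2441 counts (122 CPM) in si-NC and 1693 counts (117 CPM) in si-SRSF2. Its log2 ratio of -0.07 had an interval from -0.16 to 0.02, which spans 0. NOP58 had 77.4 CPM in si-NC against 74.8 CPM in si-SRSF2, and RRP9, a protein of the U3 snoRNP, 13.3 and 13.5 CPM. Both of these intervals spanned 0. FBL was listed with 31 counts (1.56 CPM) in si-NC and 10 counts (0.689 CPM) in si-SRSF2, and its ratio of -0.79 had a wide interval (-2.37 to -0.11). The ratio was -1.07 with a pseudocount of 0.1 CPM and -0.40 with 2 CPM. The level of FBL is uncertain, since the gene model counted is not known and the count is low. Of its 31-mers, 0% occur elsewhere in the genome file searched, which holds no patch scaffolds. The median of the group was -0.06.

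The box H/ACA snoRNPs turn uridines of rRNA into pseudouridine. NOP10 was the most counted of their 4 core proteins, with 1985 counts (99.6 CPM) in si-NC and 1645 counts (113 CPM) in si-SRSF2. Its log2 ratio was 0.19 (0.09 to 0.28), and DKC1 (dyskerin), the pseudouridine synthase, had a ratio of 0.19 (0.09 to 0.29). Both were thus higher in si-SRSF2. GAR1 was lower, with 906 counts (45.5 CPM) in si-NC and 572 counts (39.4 CPM) in si-SRSF2 and a ratio of -0.20 (-0.36 to -0.05). NHP2 had 66.0 CPM in si-NC against 64.7 CPM in si-SRSF2, with an interval that spanned 0. For NHP2, 41.7% of the 31-mers occur elsewhere on the primary chromosomes, so its level is uncertain. The core proteins of 1 complex therefore had ratios on both sides of 0, and their median was 0.08.

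In the small subunit processome and assembly group, 9 of 14 genes were higher in si-SRSF2 and 5 were lower. The interval lay above 0 for 5 of them and below 0 for 1, WDR75, where 21.0% and 26.7% of all genes did so, and the median ratio was 0.10. UTP20, a large scaffold of the processome, had 787 counts (39.5 CPM) in si-NC and 757 counts (52.2 CPM) in si-SRSF2. Its ratio of 0.40 (0.26 to 0.55) was the highest of the group. NOB1, the endonuclease that makes the final cut of small subunit rRNA, had 1646 counts (82.6 CPM) and 1504 counts (104 CPM), with a ratio of 0.33 (0.23 to 0.43). Part of its exons overlaps a gene on the opposite strand. WDR43, a processome protein, followed with 114 CPM in si-NC against 141 CPM in si-SRSF2 and a ratio of 0.30. HEATR1 had 2496 counts (125 CPM) in si-NC, the most of the group there, and 1760 counts (121 CPM) in si-SRSF2. In si-SRSF2 WDR43 had the most counts, 2044. The HEATR1 ratio of -0.05 (-0.14 to 0.04) did not differ from 0 beyond counting error. UTP18 and NOP14 were higher, by 0.14 and 0.11 on the log2 scale, with intervals just above 0, and WDR75 was lower at -0.12 (-0.23 to -0.02), a call that upper-quartile factors ended (-0.10, -0.21 to 0.01). For UTP14A, UTP15, TBL3, IMP3, IMP4, DDX10 and RRP12 the ratios ran from -0.16 to 0.19 and every interval spanned 0, but with upper-quartile factors those of IMP3, IMP4 and DDX10 lay just above it.

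Promoters were read for what the genes share beyond the rule. MYC and its partner MAX bind the E-box CACGTG, a palindrome that reads the same on both strands, so the 250 bases before the first start site that RefSeq (GRCh38.p14) lists for each gene were searched for it. Of the 48 genes, 39 matched an entry, and 9 did not: MYC, TCOF1, NOP58, RRP12, BOP1, RRS1, RRP1B, DDX18 and NOLC1. The motif was in 6 of these 39 promoters (15.4%), in 6.49% of all 27305 promoters of this length, in 9.08% of those of the genes kept, and in 13.6% of 103 promoters of other ribosome biogenesis genes. The 6 were NOP10, UTP14A, UTP18, UTP20, IMP4 and SURF6, of which 4 belong to the small subunit group, and NOP10 held 2 copies. They are shown to let the motif and its surroundings be read beside the ratios. For UTP18 (chr17:51260296-51260545, plus strand) and UTP20 (chr12:101279855-101280104, plus strand) the 250 bases are given whole. For NOP10 (distal copy chr15:34343289-34343318, proximal copy chr15:34343137-34343159, minus strand), UTP14A (chrX:129905914-129905940, plus strand), IMP4 (chr2:130342682-130342711, plus strand) and SURF6 (chr9:133336395-133336424, minus strand) only the bases around the motif are given. Capitals mark CACGTG, and each sequence runs 5′ to 3′ on the strand of the gene.
NOP10 distal copy: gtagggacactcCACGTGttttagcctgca
NOP10 proximal copy: gaaattgacgaaCACGTGacgcg
UTP14A: accttgggcCACGTGgaaaccaggggc
UTP18: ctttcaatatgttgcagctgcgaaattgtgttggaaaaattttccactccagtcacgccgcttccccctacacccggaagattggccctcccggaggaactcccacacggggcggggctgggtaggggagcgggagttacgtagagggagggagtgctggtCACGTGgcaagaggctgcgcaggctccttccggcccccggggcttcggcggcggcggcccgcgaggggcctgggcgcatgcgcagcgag
UTP20: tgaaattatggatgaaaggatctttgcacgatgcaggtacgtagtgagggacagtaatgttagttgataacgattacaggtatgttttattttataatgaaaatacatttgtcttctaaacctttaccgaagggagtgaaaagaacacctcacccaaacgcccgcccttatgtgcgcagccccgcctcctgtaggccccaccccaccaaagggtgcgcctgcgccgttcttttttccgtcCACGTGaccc
IMP4: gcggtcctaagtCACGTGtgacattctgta
SURF6: ggagcacaggaaCACGTGcgggaccggggt
The motif began 10 bases before the RefSeq start site in UTP20, 11 and 170 in NOP10, 89 in UTP18, 203 in IMP4, 224 in SURF6 and 241 in UTP14A. Start sites differ between annotations, and 25 of the 39 windows overlap the gene itself as GENCODE places it, which holds for 1 of the 7 motifs, the proximal copy of NOP10. All 5 of these genes that were kept, SURF6 being too low, had ratios above 0, from 0.09 to 0.40 with a median of 0.19. Their intervals lay above 0 for NOP10, UTP18 and UTP20 and spanned 0 for UTP14A and IMP4. In the 32 kept genes whose promoter window lacked these letters, 15 were lower and 17 higher, with a median of 0.02 and a range from -0.79 to 0.42. Of all 814 kept genes with the motif in this window, 362 (44.5%) were higher, beside 44.7% of the 8153 kept genes without it, and of the 13 other ribosome biogenesis genes kept with it, 8 were higher. The presence of the letters is a description of the window and was not tested against the ratios.

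In the large subunit assembly group, 4 of the 10 genes kept had intervals below 0, the uncertain NOP2 among them, and 2 above 0, near the 26.7% and 21.0% of all genes. BOP1, PES1 and WDR12 form a complex needed for processing of large subunit rRNA. BOP1 had 750 counts (37.6 CPM) in si-NC and 422 counts (29.1 CPM) in si-SRSF2, and its ratio of -0.37 (-0.55 to -0.20) was the lowest of the genes averaging 5 CPM or more. PES1 had 1526 counts (76.6 CPM) and 972 counts (67.0 CPM), with a ratio of -0.19 (-0.31 to -0.08). WDR12, in contrast, had 66.6 CPM in si-NC against 72.1 CPM in si-SRSF2, and its interval of -0.00 to 0.23 spanned 0 but not with upper-quartile factors. It did not overlap the intervals of BOP1 and PES1, its partners in the complex. NOP2, an rRNA methyltransferase, had 1395 counts (70.0 CPM) in si-NC and 890 counts (61.3 CPM) in si-SRSF2, a ratio of -0.19 (-0.31 to -0.07). Since 96.2% of the NOP2 exon bases overlap another gene model on the same strand, its level is uncertain. DDX18, an RNA helicase and the most counted gene of the group, had 2856 counts (143 CPM) and 1876 counts (129 CPM), with a ratio of -0.15 (-0.23 to -0.06). NOP16 stood at the other end with 357 counts (17.9 CPM) in si-NC and 351 counts (24.2 CPM) in si-SRSF2. Its ratio was 0.42 (0.22 to 0.65), and 24.4% of its exon bases overlap a gene on the opposite strand. RRS1, which brings the 5S RNP into the pre-ribosome, had 25.3 CPM in si-NC against 30.4 CPM in si-SRSF2, a ratio of 0.26 (0.07 to 0.45). BRIX1, NIP7 and RRP1B had ratios from -0.08 to 0.06 with intervals that spanned 0. PPAN, at 7 counts in si-NC against 1 in si-SRSF2, was below the minimum, and 61.8% of its exon bases overlap PPAN-P2RY11 or P2RY11 on the same strand. The median of the 10 genes kept was -0.03 and turned to 0.03 without NOP2, so no direction is given for the group.

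The scaffold and multifunctional proteins of the nucleolus held the most counted genes. NPM1 (nucleophosmin) had 24537 counts (1231 CPM) in si-NC and 20317 counts (1399.8 CPM) in si-SRSF2. The log2 ratio of NPM1 was 0.19 (0.16 to 0.21), but 86.7% of its 31-mers occur elsewhere on the primary chromosomes, so its level is uncertain. NCL had 17649 counts (886 CPM) and 13618 counts (938 CPM), a ratio of 0.08 (0.05 to 0.12). The deep coverage of both genes makes small differences exceed counting error, which is not the variation between transfections. NOLC1 (Nopp140), a chaperone of snoRNPs in the nucleolus and Cajal body, lies at chr10:102152176-102163871 on the plus strand. It had 1173 counts (58.9 CPM) in si-NC and 1610 counts (111 CPM) in si-SRSF2, a level 1.88-fold higher. The ratio of 0.91 (0.80 to 1.02) was the highest of the 46, and its interval did not overlap that of any other gene of the 46. NOLC1 and TCOF1, which are related in their repeated acidic and serine-rich stretches, thus had the highest ratios of the genes averaging 5 CPM or more. DDX21, an RNA helicase of rRNA transcription and processing, went the other way. It had 5874 counts (295 CPM) in si-NC and 3584 counts (247 CPM) in si-SRSF2, and its ratio of -0.25 (-0.32 to -0.20) was the second lowest at this depth. GNL3 (nucleostemin), MYBBP1A and LYAR had ratios of -0.07, 0.02 and 0.03, and their intervals spanned 0. SURF6 had 8 counts in si-NC against 11 in si-SRSF2 and was below the minimum. The median of the 7 genes kept was 0.03.

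The 48 genes together held 105689 counts (5303 CPM) in si-NC and 81696 counts (5629 CPM) in si-SRSF2, a log2 ratio of 0.09 (0.07 to 0.10). Without NPM1, NOP2, RRN3 and PPAN, whose sequence is shared with other genes or places, the sum was 3999.7 CPM in si-NC against 4166 CPM in si-SRSF2 and the ratio 0.06 (0.04 to 0.07), an alternative chosen after the data were seen. The scaffold group alone, with NPM1, held 2700.1 and 2920.4 CPM. In the same order of libraries, the small subunit group had 895 and 964 CPM and the MYC and RNA polymerase I group 564 and 612 CPM. The large subunit group had 631 and 609.7 CPM and the box C/D group 215 and 206 CPM. No direction is read from the sum of the large subunit group, which includes NOP2.

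Several members host small nucleolar RNAs in their introns. The annotation places 26 snoRNA or scaRNA genes within introns of 8 of the 48 genes, of which 20 were in the count table and 7 were at 0 in both libraries. Their counts summed to 148 in si-NC against 116 in si-SRSF2, too few to compare single snoRNAs. Mature snoRNAs carry no poly(A) tail, and the libraries were made from poly(A) RNA. The precursor RNA45S5 and the mature rRNA genes RNA28S5 and RNA18S5 were also at 0 in both libraries, so rRNA itself was not measured here.

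Other genes of the pathway were drawn from 5 further lists with 130 genes, of which 128 were kept. Of these, 63 were lower and 65 higher in si-SRSF2, and the median was 0.00 beside 0.03 for the ribosome production genes above. The interval lay below 0 for 24 (18.8%) and above 0 for 31 (24.2%), beside 26.7% and 21.0% of all genes, with which the counts of each list are to be read. In the list of other RNA polymerase I genes, 2 intervals of 15 lay below 0 and 2 above. Of the 15 genes, 10 were lower and 5 higher, with a median of -0.05. The intervals below 0 were those of POLR2F at -0.33 and POLR1F (TWISTNB) at -0.26. Those above 0 were POLR2H at 0.14 and POLR1D at 0.12. In that of other small subunit genes, 10 of 42 lay below and 8 above, with NOP9 lowest at -0.40 and MPHOSPH10 highest at 0.49. MPHOSPH10, a U3 snoRNP protein, had 27.8 CPM in si-NC against 39.4 CPM in si-SRSF2. Among 45 other large subunit genes, 4 intervals lay below 0 and 14 above, with a median of 0.07. The list of snoRNP assembly factors, which also holds SNU13, a core protein of box C/D snoRNPs, had 2 of 11 intervals below 0 and 4, SNU13 among them, above. Of the 11 genes, 6 were lower and 5 higher. ZNHIT6 was the lowest of them at -0.35, and SHQ1 followed at -0.25. ZNHIT3 was the highest at 0.47, but it had only 16 and 19 counts and its interval spanned 0. TGS1 came next at 0.31, and the helicases RUVBL1 and RUVBL2 stood at 0.29 each. The exonuclease and exosome genes had 6 of 15 intervals below 0 and 3 above, and ERI1, which trims the end of rRNA, was lowest with 102 CPM in si-NC against 70.2 CPM in si-SRSF2, a ratio of -0.54 (-0.65 to -0.44).

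MYC and the genes around it were set beside the ribosome production genes. Of 12 kept genes of the MYC network, 4 had intervals below 0 and 3 above, which is near the 26.7% and 21.0% of all genes. MXD1, which competes with MYC for MAX, had 2917 counts (146 CPM) in si-NC and 1392 counts (95.9 CPM) in si-SRSF2, a ratio of -0.61 (-0.70 to -0.52), and MYCL had 113 and 139 counts, a ratio of 0.71 (0.39 to 1.13). MYC itself was thus nearly level while these 2 genes of its network were not. Of 24 known MYC targets outside the nucleolus, 6 had intervals below 0 and 11 (45.8%) above, beside 26.7% and 21.0% of all genes, from PPAT at -0.67 to TFRC at 0.42, with a median of 0.06. These interval counts depend on depth, since small ratios exceed counting error in abundant genes. LDHA, with 44242 counts in si-NC, was among those above 0 at a ratio of only 0.03 (0.01 to 0.05). The 5S RNP, a particle of RPL5 and RPL11 that RRS1 brings into the ribosome, can bind MDM2 when ribosome assembly fails. RPL5 had 1064 CPM in si-NC against 1191 CPM in si-SRSF2, and RPL11 824 and 1026 CPM. MDM2 had 346 CPM in si-NC against 528 CPM in si-SRSF2, a ratio of 0.61 (0.56 to 0.66). MDM4, a relative of MDM2, was lower in si-SRSF2, with a ratio of -0.20 (-0.29 to -0.12). These are mRNA levels, so binding of the 5S RNP to MDM2 was not measured, and its part in them was not tested.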

How the data were processed

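Total RNA of RKO cells was made into libraries with the TruSeq Stranded mRNA kit and sequenced on a HiSeq X as paired ends of 150 bp. Cleaned reads were aligned by the authors to GRCh38 with HISAT2 (2.0.4 in the submitters' processing notes) and counted with HTSeq, which gave the deposited raw counts of each gene, without normalization. The version and the strand setting of the counting are not given in the sources used here, so genes that overlap others are uncertain on either strand. Ensembl release 100 is named as the annotation, whereas 16146 symbols in the table have the LOC form of NCBI.

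The counts were scaled with TMM factors in edgeR 4.0.16 (R 4.3.3). Filter, pseudocount and intervals (SciPy 1.17.1, from the counts without the pseudocount) are given with the results, and the calculations were tested on simulated data. Canonical transcripts, overlaps and introns came from GENCODE release 44, and 31-mers were matched to GRCh38 with 261 alternate-locus scaffolds. Genes given with full values were SRSF2, MYC and the 5 lowest and 5 highest ratios among members with a mean of at least 5 CPM. So was the gene of each role group with the most counts in si-NC. FBL and NCL were also given in full, outside this rule. From each other list, up to 3 of the lowest and 3 of the highest ratios could be named, and other names there were chosen after their values were seen. The results for 2 genes of the lists are not reported here. The members and the lists were chosen with earlier results of these data known. As alternatives, TMM was replaced by total counts, by upper-quartile factors, by size factors of DESeq2 1.42.0, or by scaling without mitochondrial and the 20 most abundant genes. The pseudocount was set to 2 or 0.1 CPM, and the filter was dropped or raised to 5 CPM.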

Additional observations from a re-analysis of the deposited data

How the results depend on the processing

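The medians of the ribosome production genes, their role groups and the other ribosome biogenesis genes were recomputed under 8 alternatives. So were the counts over all ribosome production genes kept and the ratios of 18 named genes, SRSF2 and FBL included. Counts within the role groups and over the other lists were not among these. An alternative added after the data were seen left out NOP2, NPM1, PPAN and RRN3, which share over 50% of their sequence with another gene or place in the genome. The summed CPM of the 48 genes, also an addition, was recomputed with each scaling and without these genes, and uses neither the pseudocount nor the filter. Of the recomputed medians, counts and sums, 118 stayed within their bounds and 4 did not. The number of members at least 1.5-fold lower, 1 by FBL, was 0 with a pseudocount of 2 CPM and also 0 when the filter was raised to 5 CPM, which leaves FBL out. The log2 ratio of the summed CPM of the 48 genes, 0.09, was 0.11 with upper-quartile factors and 0.059 without NOP2, NPM1, PPAN and RRN3. Under the 6 alternatives that can alter the ratio of a gene, all 108 ratios of named genes stayed within their Clopper-Pearson intervals. The filters cannot alter a ratio, and the intervals do not use the pseudocount. For a median the bounds were the medians of the members' interval limits, for the sum its own interval, and for a count a factor of 1.5. The bounds of a median are wide, and those of the overall median, 0.0268, ran from -0.0977 to 0.2024. Apart from upper-quartile factors, the alternative scalings moved the log2 scaling by at most 0.0003 against TMM. Values could thus hardly leave their bounds, and these tallies are no measure of how reproducible the ratios are. The median of the ribosome production genes ran from 0.03 to 0.05, the number lower in si-SRSF2 from 18 to 21, the number with an interval below 0 from 7 to 8, and that above 0 from 15 to 20. Upper-quartile factors, which shift every ratio by 0.02, gave the 20, with IMP3, IMP4, DDX10 and WDR12 added, and ended the call of WDR75 below 0. NOLC1 ran from 0.89 to 0.93. The large subunit median ran from -0.08 without a filter to 0.03 without NOP2 and PPAN. No paired analysis was possible because there was 1 library in each group. For the same reason no library could be left out, and differences between transfections cannot be told apart from those between si-NC and si-SRSF2. Low counts limit FBL, RRN3, PPAN and SURF6, each with 37 counts or fewer in either library.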
